A study of Mus musculus with 12 samples.

Results

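The step from proerythroblast to basophilic erythroblast was followed in the spleens of mice on a selenium-adequate diet, across every gene that could be tested. It compared 3 arrays of basophilic erythroblasts with 3 arrays of proerythroblasts, chosen by diet and cell type as their titles give them, so 6 of the 12 arrays in the series. Both groups came from male mice that had been kept on the adequate diet for 3 months, had received phenylhydrazine, and were sampled on day 3 after it. Total RNA of the sorted spleen cells (5 ng per sample, biotin-labelled with a kit for picogram amounts) was hybridised to Affymetrix whole-transcript arrays. Both groups thus carried the drug treatment, and no untreated mice were among the samples. The sort markers are not given in the sources used here, and the labels do not say whether replicates came from separate mice, so p-values measure the spread between these samples, which may be technical.

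Phenylhydrazine destroys circulating red cells, and in mice the anaemia is met by a burst of red cell production in the spleen called stress erythropoiesis. The proerythroblast is the first recognisable red cell precursor. It is large and rich in ribosomes, and it carries the receptors for stem cell factor (Kit), erythropoietin and transferrin. The basophilic erythroblast follows it within a few divisions: it has begun to fill with hemoglobin, builds the spectrin-based membrane skeleton, and will later condense and expel its nucleus and clear its organelles.

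All levels below are the deposited log2 values, all changes are log2 differences of the basophilic mean minus the proerythroblast mean (3 arrays each), and the words rose and fell are used only of changes with a Benjamini-Hochberg adjusted p under 0.05 in limma over the 20128 genes tested. The basophilic arrays had a higher background than the proerythroblast arrays. The median of their GC background features was 3.63, 4.19 and 3.80 in basophilic replicates 1, 2 and 3, against 3.53, 3.36 and 3.40 in the proerythroblasts. The interquartile range was 2.25 to 2.49 in the former and 2.63 to 2.65 in the latter. Basophilic replicate 2 stood apart, with the highest background, the narrowest range and correlations of 0.97 and 0.976 with the other basophilic arrays, which correlated with each other at 0.993. The proerythroblast arrays correlated at 0.989 to 0.993.

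The change between the stages was broad. Of 20128 genes, 10910 passed (54.2%), 5767 higher (28.7%) and 5143 lower (25.6%) in basophilic erythroblasts. The median change was -0.98 for genes that fell and 0.55 for genes that rose, and 2490 fell at least 2-fold against 650 that rose as much. At 8-fold or more the order turned, with 17 that fell and 26 that rose. The median gene tested changed by 0.12 as deposited, and by -0.09 when each array was centred on its median. Centring turned the split to 2156 higher and 6038 lower, and quantile normalization turned it to 2375 and 4174. The share higher among the calls was 52.9% as deposited, 36.3% after quantile normalization, 26.3% after centring, 59.3% with no filter on dim genes and 41.6% with a stricter one. Only 1626 of the higher calls but 4016 of the lower calls held under both scalings. These shares and this median are the background for the gene lists below, which were chosen with earlier results of the same arrays known. List counts of 1 or 2 genes are mostly given without a range, since leaving out a single array changed many of them.

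Small increases went with the level of a gene. With the genes tested in 4 equal groups from dimmest to brightest, the median change was 0.40, 0.32, -0.28 and -0.45. Olfactory receptor genes, a family for the sense of smell, were looked at after the values were seen. Of 1088 with a feature, 103 reached the filter. Of these 103, 56 were called higher and 0 lower, with a median of 0.51, and none was called at 1.5-fold. Quantile normalization called 11 of the 103 higher (median 0.33) and median centring 16 (median 0.3). Genes could reach the filter through the basophilic arrays alone, so these values do not measure the size of the shift. Over all 1088 the median level was 3.39 in proerythroblasts and 3.65 in basophilic erythroblasts. A stricter count took genes whose change exceeded 1.5-fold by limma's treat test. It held 1870 genes (9.29%), 428 higher (2.13%) and 1442 lower (7.16%). Without overlap between the arrays of the stages were 14887 genes (74%), with all basophilic arrays above for 8329 (41.4%) and below for 6558 (32.6%). Leaving out basophilic replicate 2, proerythroblast replicate 1 or proerythroblast replicate 2 left 5613, 6192 and 6082 calls, and the higher calls also dropped to 3462 without basophilic replicate 3 and to 3364 without proerythroblast replicate 3.

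**Figure D1:**
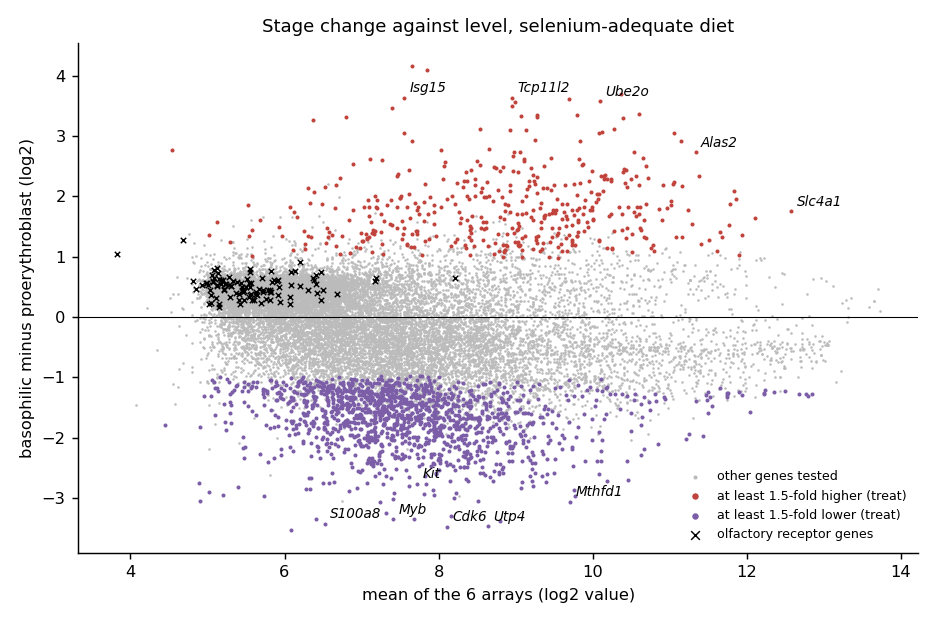
Each point is a gene tested, placed by its mean log2 value over the 6 adequate-diet arrays (horizontal) and its log2 change from proerythroblast to basophilic erythroblast (vertical). Red and purple points are the 428 genes higher and the 1442 lower by at least 1.5-fold, and the olfactory receptor genes (black crosses, median 0.51) lie among the dim genes above 0.

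Several genes of the progenitor state fell, and others did not. Kit, the receptor for stem cell factor that supports early precursors, stood at 8.97, 9.34 and 8.98 in proerythroblast replicates 1, 2 and 3 and at 6.17, 6.40 and 6.45 in the basophilic replicates. Every basophilic array lay below every proerythroblast array, and Kit fell by 2.76 (SE 0.16, adjusted p = 8.62e-07). Myb, a transcription factor that holds precursors in an immature, dividing state, had values of 8.91, 9.25 and 9.09 in proerythroblasts and 5.62, 5.85 and 5.72 in basophilic erythroblasts, again without overlap, and fell by 3.35 (SE 0.19, adjusted p = 8.55e-07). Cdk6, a G1 kinase, showed the largest fall of the genes named by rule: from 9.86, 9.81 and 9.86 it went to 6.22, 6.29 and 6.61 and fell by 3.47 (SE 0.20, adjusted p = 8.62e-07), or 11.1-fold. Myc, the growth-promoting factor that drives ribosome production, read 8.59, 9.31 and 8.93 against 7.45, 6.77 and 7.06 and fell by 1.85 (SE 0.22, adjusted p = 6.93e-05). In these bulk samples fewer cells that carry a transcript and less of it per cell cannot be told apart.

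Among 23 tested progenitor genes, 9 fell and 5 rose (3 without basophilic replicate 2 or without proerythroblast replicate 1 or 2), and the list's median was -0.12 against 0.12 for all genes. The adhesion receptor gene Cd44 fell by 1.61. Not every early factor followed: Gata2, which hands over to Gata1 as erythroid cells mature, had 7.03, 7.15 and 7.14 in proerythroblasts and 7.19, 7.48 and 7.24 in basophilic erythroblasts. Its basophilic arrays lay slightly above, and its change of 0.20 did not pass (adjusted p = 0.416). Lmo2 and Lyl1, partners of Tal1 in a transcription factor complex, rose by 0.94 and 0.99. Cd34, a marker of stem and progenitor cells, was below the filter on dim genes.

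The core erythroid factors Gata1, Klf1 and Tal1 did not pass in the main fit, while several other regulators rose or fell. Gata1, the master regulator of the erythroid lineage, read 8.67, 8.66 and 8.36 and then 9.04, 8.64 and 9.07, with overlapping arrays and a change of 0.35 (adjusted p = 0.132). Klf1, which activates adult globin and membrane genes, read 10.01, 10.26 and 9.83 and then 10.66, 9.84 and 10.69; basophilic replicate 2 was within the proerythroblast range and the other basophilic arrays were above them, and the change of 0.36 did not pass (adjusted p = 0.359). Tal1, a partner of Gata1, went from 9.08, 9.27 and 8.84 to 9.91, 9.30 and 9.96, just short of the threshold (0.66, adjusted p = 0.0517). Under quantile normalization Gata1 changed by 0.61 (adjusted p = 0.00126) and Tal1 by 0.88 (adjusted p = 0.001), and both passed. Gata1 also passed without deficient basophilic replicate 2 (adjusted p = 0.034), and Tal1 without basophilic replicate 2 of either diet or without deficient basophilic replicate 3 (adjusted p 0.00821 to 0.0417). With array weights both Gata1 (adjusted p = 0.0222) and Tal1 (adjusted p = 0.00424) passed. Tal1 passed too with a replicate block (adjusted p = 0.029) and in a fit of the adequate arrays alone (adjusted p = 0.023). Klf1 passed with both replicate 2 basophilic arrays left out, a setting chosen after seeing the data (0.64, adjusted p = 0.0273). In that setting Gata1 (0.49, adjusted p = 0.00322) and Tal1 (0.87, adjusted p = 0.000792) passed as well. In the regulator list, 8 of 26 rose and 4 fell (2 without basophilic replicate 2 or without proerythroblast replicate 1 or 3), with a median of 0.33. The cell cycle factor E2f2, needed for the last erythroid divisions, rose by 2.28 (SE 0.14, adjusted p = 1.21e-06), the globin activator Nfe2 by 2.12, Sox6, a silencer of embryonic globin, by 1.82, and the small Maf protein gene Mafk by 1.21. Foxo3, which drives antioxidant and mitochondrial clearance genes in erythroblasts, rose from 8.58, 8.69 and 8.31 to 10.23, 10.07 and 10.29, by 1.67 (SE 0.15, adjusted p = 9.4e-06). In the other direction, Bcl11a, a repressor of embryonic globin, fell by 2.26 (SE 0.31, adjusted p = 0.000164), Ldb1, a bridge between enhancers and promoters, by 0.96, and Ikzf1, the lymphoid and erythroid factor Ikaros, by 1.28. The Ikzf1 call was lost without basophilic replicate 2 (-0.94, adjusted p = 0.105) and without any one of the proerythroblast arrays (adjusted p 0.0527 to 0.067).

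**Figure D2:**
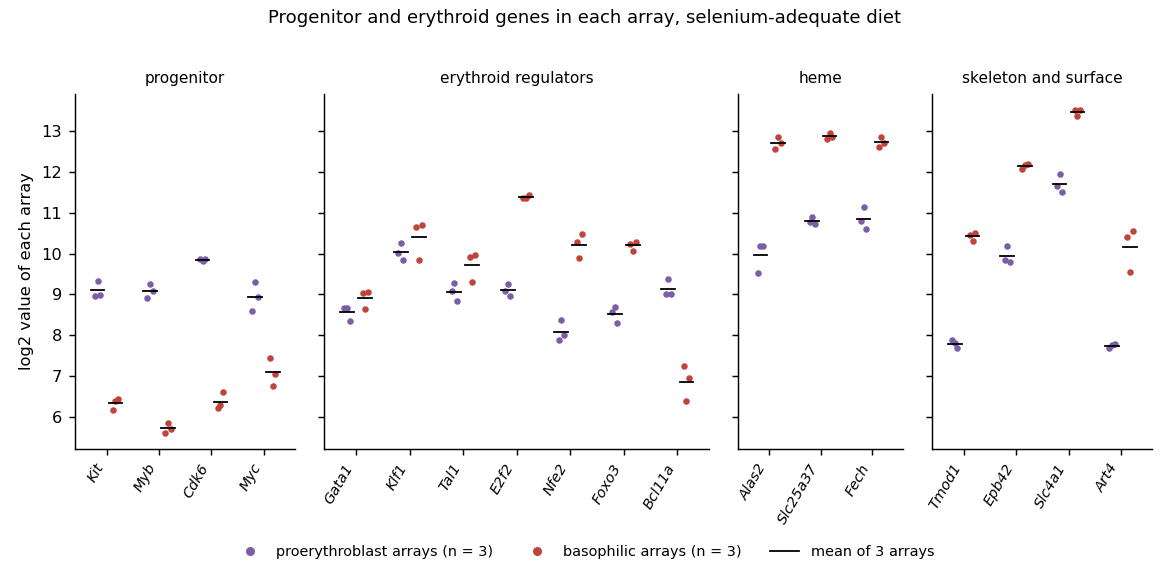
Log2 value of each array for progenitor genes, erythroid regulators, heme genes and genes of the membrane, in proerythroblasts (purple) and basophilic erythroblasts (red) on the adequate diet, with the mean of the 3 arrays as a bar. Kit, Myb, Cdk6 and Myc drop without overlap, Gata1 and Klf1 overlap, and Alas2, Tmod1 and Slc4a1 rise without overlap.

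The gateway gene of heme synthesis rose, with several others of its list. Alas2, the erythroid enzyme of the first and rate-limiting step, went from 9.53, 10.19 and 10.19 in the proerythroblast arrays to 12.55, 12.85 and 12.70 in the basophilic arrays. The stages did not overlap, and Alas2 rose by 2.73 (SE 0.19, adjusted p = 1.87e-06), or 6.63-fold. Slc25a37 (mitoferrin 1), which carries iron into mitochondria for that synthesis, read 10.76, 10.89 and 10.73 and then 12.81, 12.94 and 12.86, a rise of 2.08 (SE 0.12, adjusted p = 8.62e-07). Slc25a39, a mitochondrial glutathione carrier, rose by 2.21, Fech, which inserts the iron into the ring in the last step, by 1.87, and Urod, an enzyme of the middle of the pathway, by 1.33. Pgrmc1, a heme-binding membrane protein, fell by 1.70. Of 20 listed genes 18 were tested, 10 rose and 1 fell, and the median was 0.78. The higher count was 8 without basophilic replicate 3 or proerythroblast replicate 3, and 7 of the rises held under both scalings. Alad, another enzyme of the pathway, had a change of 0.33 that did not pass. For heme export and breakdown the list split: Slc48a1, a heme transporter, rose by 1.83 and Fam210b, a mitochondrial protein needed for heme synthesis, by 1.71, while Flvcr1, the heme exporter, fell by 1.49 (SE 0.16, adjusted p = 3.6e-05). The counts there were 4 higher and 1 lower of 8 (median 0.59).

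The major adult globins lie on array features that name several globin genes and were not tested as single genes. A feature shared by Hba-a1 and Hba-a2 read 13.55, 13.72 and 13.78 in proerythroblasts and 14.10, 14.12 and 14.06 in basophilic erythroblasts, and a feature shared by the adult beta genes read 13.32, 13.61 and 13.56 and then 13.87, 13.97 and 13.85. Another feature of the adult beta genes read 11.43, 11.58 and 11.95 and then 12.50, 12.50 and 12.43. Basophilic arrays were above at all of these features, and 2 of them lay at the top of the scale of these arrays. The globin genes with a feature of their own all rose (6 of 6; 7 of the 13 listed had none), with a median of 1.41. The theta globin genes Hbq1b and Hbq1a, near-identical copies whose signals cannot be separated with certainty, rose the most. Hbq1b went from 7.85, 7.95 and 7.87 to 11.47, 11.56 and 11.47, a rise of 3.61 (SE 0.16, adjusted p = 2.97e-07), and Hbq1a rose by 3.56. The embryonic genes Hbb-y, Hbb-bh1 and Hba-x rose by 1.66, 1.16 and 0.74. Hbb-y read 5.41, 5.11 and 5.46 and then 6.61, 7.30 and 7.06.

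The membrane skeleton list was higher in 9 of 13 tested genes and lower in 0, with a median of 1.19, and leaving out any one array left 9 higher. Tmod1, tropomodulin, which caps the short actin filaments of the skeleton, went from 7.89, 7.81 and 7.69 to 10.45, 10.30 and 10.51 and rose by 2.62 (SE 0.12, adjusted p = 2.97e-07), 6.16-fold. Slc4a1, the band 3 anion exchanger that anchors the skeleton to the membrane, was already at 11.65, 11.95 and 11.51 in proerythroblasts and reached 13.50, 13.36 and 13.50, a rise of 1.75 (SE 0.13, adjusted p = 2.71e-06). Epb42 (protein 4.2) rose by 2.21, Sptb (beta spectrin) by 1.70 and Tpm1 (tropomyosin) by 1.11. The members that did not pass were the widely expressed Sptan1 (0.11), Sptbn1 (-0.48), Tpm3 (-0.50) and Actb (-0.21). Of these Sptbn1 fell with median centring (-0.69, adjusted p = 0.0381), and Tpm3 without deficient basophilic replicate 2 (adjusted p = 0.0339).

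Promoters of a pair of these genes are shown because the site for GATA factors is the best known control element of erythroid genes. They are the RefSeq windows (GRCm38.p6) from 250 bases before to 50 bases after the start of Alas2, chrX:150547167-150547466 on the plus strand, and of Epb42, chr2:121036828-121037127 on the minus strand, with matches to AGATAA or its reverse TTATCT in capitals.
Alas2: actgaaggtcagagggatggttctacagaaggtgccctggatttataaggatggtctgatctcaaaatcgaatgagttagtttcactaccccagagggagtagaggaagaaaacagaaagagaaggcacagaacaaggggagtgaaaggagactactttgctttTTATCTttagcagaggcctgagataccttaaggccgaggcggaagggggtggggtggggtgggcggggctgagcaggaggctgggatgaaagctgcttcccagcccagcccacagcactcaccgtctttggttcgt
Epb42: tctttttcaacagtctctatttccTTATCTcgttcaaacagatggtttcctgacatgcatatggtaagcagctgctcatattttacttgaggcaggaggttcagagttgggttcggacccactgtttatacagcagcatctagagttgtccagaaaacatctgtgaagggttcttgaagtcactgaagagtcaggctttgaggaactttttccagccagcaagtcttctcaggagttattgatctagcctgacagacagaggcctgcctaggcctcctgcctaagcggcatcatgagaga
The match in Alas2 begins 86 bases before the start and that in Epb42 226 bases before it. Such a match was in 13.8% of the promoters of genes at least 1.5-fold higher (42 of 304 with a window), in 6.48% of those at least 1.5-fold lower and in 8.48% of all genes tested with a window. Lists in which most genes fell held it in 20.8% (purine and one-carbon), 13.6% (mitochondrial ribosome) and 5.13% (ribosome biogenesis). Lists with more genes higher than lower held it in 33.3% (membrane skeleton, 3 of 9), 23.1% (red cell surface) and 20% (interferon). Heme synthesis and ubiquitin enzymes, also lists with more genes higher than lower, held it in 18.8% and 9.52%. All promoter windows of this length held it in 11.2%. These shares are descriptions, and a match is not evidence of binding.

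Genes for proteins of the red cell surface were higher in 19 of 31 and lower in 3, with a median of 0.86. The higher count was 16 without basophilic replicate 3 or proerythroblast replicate 3, and 14 of the rises held under both scalings. Art4, which carries the Dombrock blood group, rose by 2.42 (SE 0.28, adjusted p = 5.56e-05). The amino acid transporter subunits Slc7a5 and Slc3a2 rose by 1.71 and 1.19, the lactate carrier Slc16a1 by 1.28, and Cd59a, a protector against complement, by 1.32. The nucleoside transporter Slc29a1 fell by 0.70, and the carbonic anhydrase gene Car1 by 1.42. Piezo1, a stretch-gated channel, fell by 0.83, a call lost without basophilic replicate 2 (-0.62, adjusted p = 0.0732) or proerythroblast replicate 1 (-0.72, adjusted p = 0.0621).

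Iron genes moved both ways, 8 higher and 10 lower (6 without basophilic replicate 2) of 24. Their median of 0.17 as deposited turned to -0.04 with median centring. Tfrc, the transferrin receptor by which erythroblasts take up iron, went from 9.69, 9.65 and 9.39 to 10.92, 10.44 and 10.82 and rose by 1.15 (SE 0.23, adjusted p = 0.00222). Ncoa4, which delivers ferritin for breakdown so that its iron is released, rose by 2.92 (SE 0.21, adjusted p = 2.34e-06). The iron-sulfur assembly genes Isca1 and Iscu rose by 1.87 and 1.29, and Ftl1, the ferritin light chain, by 0.64. In contrast Aco1 (iron regulatory protein 1) fell by 1.46, Fbxl5, which degrades its sister protein, by 1.05, Tfr2, a second transferrin receptor that also tunes erythropoietin signalling, by 1.09, and Lyrm4, another assembly factor, by 1.15.

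Genes of erythropoietin signalling rose and fell in shares near those of all genes. Bcl2l1, which encodes the survival protein Bcl-xL, rose from 7.48, 7.82 and 8.06 to 10.51, 10.90 and 10.74, by 2.93 (SE 0.17, adjusted p = 8.62e-07), or 7.62-fold. The kinase genes Pim1 and Pim2 rose by 1.57 and 0.80, and the feedback inhibitors Cish and Socs3 by 1.37 and 0.68. Stat5b and Stat5a, the factors that carry the signal, fell by 1.30 and 0.87, and Ptpn6, the phosphatase that ends it, by 1.55. The receptor gene Epor read 10.14, 10.22 and 9.90 and then 10.88, 10.35 and 10.76. Its change of 0.58 lay just inside the threshold (adjusted p = 0.0486) and was lost with median centring (0.37, adjusted p = 0.274). It was also lost without basophilic replicate 1 or 3, without any proerythroblast array of the adequate diet and without any of the deficient diet (adjusted p 0.0623 to 0.136). In all, 7 of 25 genes rose and 8 fell (4 without basophilic replicate 2), with a median of -0.14.

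Several receptors of niche signals fell. Eng (endoglin), a co-receptor for BMP and TGF-beta ligands, fell by 2.13 (SE 0.19, adjusted p = 8.69e-06), Bmpr2, the type II BMP receptor, by 1.73, Ptch1, the hedgehog receptor, by 1.66, and Notch2 by 1.38. BMP4 and hedgehog signals are known to expand stress erythroid progenitors in the spleen. The list gave 10 lower and 5 higher of 22 (median -0.27). None of the higher calls held under both scalings, and basophilic replicate 2 left out gave 0. That higher count changed by more than 1.5 times on leaving out 10 of the 12 arrays. Among adhesion genes Cd36, a scavenger receptor of young red cells, went from 7.16, 7.73 and 7.98 to 10.57, 11.37 and 10.89 and rose by 3.32 (SE 0.28, adjusted p = 6.29e-06). Itga5, the fibronectin receptor subunit by which early precursors hold to matrix, fell by 2.27 (SE 0.17, adjusted p = 2.91e-06). Maea, which takes part in the island of erythroblasts around a macrophage, fell by 1.04, though not without basophilic replicate 2 (-0.73, adjusted p = 0.051). The adhesion counts were 5 higher (3 without basophilic replicate 3 or proerythroblast replicate 2) and 3 lower of 19, and the median of 0.12 turned to -0.04 under quantile normalization and -0.09 under centring.

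Genes of G1 control rose and fell in shares near those of all genes. Besides Cdk6, its partner Ccnd2 (cyclin D2) fell from 9.05, 9.32 and 9.48 to 6.68, 6.61 and 6.93, by 2.54 (SE 0.28, adjusted p = 3.88e-05), and Cdk4 and E2f3 fell by 2.38 and 1.83. The kinase inhibitors rose: Cdkn1b (p27) went from 6.65, 6.51 and 6.63 to 8.54, 8.47 and 8.87, by 2.03 (SE 0.16, adjusted p = 4.58e-06), and Cdkn2d (p19) rose by 2.78. Tfdp2, the partner of E2f2, rose by 2.18. Cyclin D3, encoded by Ccnd3, which sets the number of erythroid divisions, read 8.69, 8.48 and 8.57 and then 8.97, 8.20 and 8.74 and did not pass (adjusted p = 0.846). The list held 9 higher and 8 lower (5 without basophilic replicate 2) of 28, and its median of 0.15 turned to -0.06 with centring.

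S phase genes were lower or did not pass. Of 56, 16 fell, a share near that of all genes, and 0 rose, with a median of -0.58. The count that fell was 6 without basophilic replicate 2, 7 and 7 without proerythroblast replicates 1 and 2, and 35 without replicate 2 of the deficient-diet basophilic group, which enters the fit through the shared error. Hells, a chromatin remodeller of replication, fell by 1.73, the polymerase delta subunit gene Pold2 by 1.18, the nuclease gene Exo1 by 1.16 and Dut, which keeps uracil out of DNA, by 0.93. Mcm2, a subunit of the replicative helicase, read 11.07, 10.94 and 10.78 and then 10.71, 9.85 and 10.46, all basophilic arrays below. Its change of -0.59 did not pass (adjusted p = 0.0738). Mcm2 did pass without basophilic replicate 1 (-0.78, adjusted p = 0.0415) or deficient basophilic replicate 2 (adjusted p = 0.0282). It also passed with a replicate block (adjusted p = 0.0162) and in a fit of the adequate arrays alone (adjusted p = 0.0438). Pcna, the sliding clamp, read 12.18, 12.05 and 12.04 and then 12.18, 11.41 and 11.95, with replicate 2 the lowest of the basophilic arrays. Its change was -0.24 (adjusted p = 0.516). Rrm2, the ribonucleotide reductase subunit, had 10.12, 10.08 and 9.90 and then 10.70, 9.84 and 10.50, with a change of 0.31 (adjusted p = 0.374). Rrm2 rose with array weights (0.49, adjusted p = 0.0159). It also rose with both replicate 2 basophilic arrays left out, a setting chosen after seeing the data (0.57, adjusted p = 0.00166). In that setting 27 S phase genes fell and 4 rose.

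For mitotic genes the count depended on replicate 2 of the basophilic groups. Of 61, 6 rose and 0 fell, with a median of 0.31. With replicate 2 of both basophilic groups left out, an alternative added after the values were seen, 51 rose and 0 fell, and without the deficient-diet one alone 15 rose. Mki67, a marker of cycling cells, had 12.62, 12.61 and 12.51 in proerythroblasts and 13.12, 12.68 and 13.11 in basophilic erythroblasts. Its change of 0.39 did not pass (adjusted p = 0.116), but it did under quantile normalization (0.50, adjusted p = 0.0363) and without deficient basophilic replicate 2 (adjusted p = 0.014). Plk1, a mitotic kinase, read 11.43, 11.48 and 11.34 and then 11.66, 10.29 and 11.54, where replicates 1 and 3 were above all proerythroblast arrays and replicate 2 was below them all. Cdk1 (0.09), Ccna2 (0.29), Top2a (0.27) and Kmt5a (0.03) did not pass either (adjusted p from 0.326 to 0.905). The genes that rose include brakes and exits of mitosis as well as its triggers. Cdc25b, the phosphatase that starts mitosis, rose by 2.66 (SE 0.15, adjusted p = 8.62e-07), and Fzr1, the co-activator that keeps cells in G1 after it, by 2.28 (SE 0.12, adjusted p = 6.9e-07). Ube2c and Ube2s, the ubiquitin enzymes of the same complex, rose by 1.32 and 0.94, and Nusap1, a spindle protein, by 1.44.

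Histones and chromatin genes divided. Of 21 replication histone genes with a feature of their own (37 listed genes had none), 7 rose and none fell (median 0.76), and 1 of these rises held under both scalings. The count that rose was 3, 11 and 2 without basophilic replicates 1, 2 and 3, 2, 3 and 4 without proerythroblast replicates 1, 2 and 3, 15 without deficient basophilic replicate 2 and 4 without deficient proerythroblast replicate 1. The linker histone H1f2 rose by 2.22 (SE 0.40, adjusted p = 0.00129). Among chromatin genes 12 of 27 fell and 3 rose (median -0.48). The acetyltransferase gene Kat2a fell by 1.93 (SE 0.11, adjusted p = 8.62e-07), Hdac2, a deacetylase used in nuclear condensation, by 1.68, and Ezh1, a methyltransferase of the Polycomb complex, rose by 1.31. For DNA methylation 1 gene rose and 4 fell of 14. The lower count was 1 without proerythroblast replicate 1 or 2, and 2 without any one of the basophilic arrays, proerythroblast replicate 3 or deficient proerythroblast replicate 3. Gadd45a, a stress-induced factor linked to demethylation, rose by 2.04 and Tet2, which oxidises methylcytosine, fell by 1.59. That list's median of -0.11 turned to 0.03 under quantile normalization.

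Of the lists described here, that for the making of ribosomes had the lowest median. Of 44 tested genes of ribosome biogenesis 42 fell and 0 rose, with a median of -2.3. As many fell whichever array was left out (42 to 42), and 37 fell by at least 1.5-fold. Utp4, a subunit of the complex that processes the small-subunit RNA, stood at 10.24, 10.53 and 10.34 in proerythroblasts and at 6.94, 6.62 and 7.16 in basophilic erythroblasts. It fell by 3.46 (SE 0.32, adjusted p = 1.04e-05), with no overlap. Fbl (fibrillarin), which methylates ribosomal RNA, went from 11.63, 11.73 and 11.53 to 9.45, 8.79 and 9.51, by 2.38 (SE 0.25, adjusted p = 2.57e-05). Polr1b, a subunit of the polymerase that transcribes ribosomal RNA, fell by 2.93 (SE 0.16, adjusted p = 7.9e-07), Utp20 by 2.73, Mybbp1a by 2.62, Utp15 by 2.33 and Nop16 by 2.26. Rpf2 and Pno1, assembly factors of the large and the small subunit that the rule for the largest changes named, fell by 3.24 and 3.01. The nucleolar proteins Npm1 and Ncl fell by 2.02 and 2.03. Ubtf, a factor of ribosomal RNA transcription (-0.16), and Rrs1 (0.01) did not pass.

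The E-box CACGTG is the site of Myc and its relatives, and is shown in the promoters of a pair of these genes, from the same RefSeq windows. The match is in capitals, and it reads the same on both strands. Utp4 lies at chr8:106893390-106893689 on the plus strand and Utp20 at chr10:88826765-88827064 on the minus strand.
Utp4: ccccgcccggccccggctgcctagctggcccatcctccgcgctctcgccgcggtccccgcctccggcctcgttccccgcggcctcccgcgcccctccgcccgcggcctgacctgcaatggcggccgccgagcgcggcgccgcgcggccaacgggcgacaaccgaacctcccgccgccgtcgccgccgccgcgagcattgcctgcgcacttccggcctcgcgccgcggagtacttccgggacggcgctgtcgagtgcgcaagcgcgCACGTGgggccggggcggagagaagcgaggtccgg
Utp20: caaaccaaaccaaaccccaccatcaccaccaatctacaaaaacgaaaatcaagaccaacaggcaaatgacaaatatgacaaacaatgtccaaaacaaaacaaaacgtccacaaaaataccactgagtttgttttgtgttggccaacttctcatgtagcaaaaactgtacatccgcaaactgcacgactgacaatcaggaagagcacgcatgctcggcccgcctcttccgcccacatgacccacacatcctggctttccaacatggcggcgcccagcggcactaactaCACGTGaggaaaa
The matches begin 15 and 37 bases after the start. Of 39 ribosome biogenesis genes with a window, 11 held one (28.2%), against 10.6% of all genes tested with a window, 14.9% of those at least 1.5-fold lower and 11.8% of those at least 1.5-fold higher. All windows held it in 7.15%. Among lists with more genes higher than lower, ubiquitin enzymes held it in 19%, heme synthesis in 18.8% and red cell surface in 15.4%. The membrane skeleton and interferon lists held it in 0%. Of the lists in which most genes fell, purine and one-carbon genes held it in 12.5% and mitochondrial ribosome genes in 6.78%. Here too a match is not evidence of binding, and only windows that hold a match are shown.

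The ribosome's own proteins had a smaller median change. Of 34 with a feature of their own, 32 fell, with a median of -0.72, and 3 by at least 1.5-fold. Rps24 fell by 1.09 and Rpl27 by 1.29; ribosomal protein genes have many processed copies, so their values are uncertain. Translation initiation factors fell in 31 of 37 and rose in 0 (median -1.06). Eif1a, which scans for the start codon, fell by 2.31 (SE 0.14, adjusted p = 1.1e-06), and Eif2b1, Eif2b3 and Eif2b5, subunits of the factor that recharges eIF2, by 2.34, 2.12 and 1.79. Aminoacyl-tRNA synthetases fell in 19 of 33 (median -0.89), the mitochondrial enzymes Yars2 and Rars2 by 2.64 and 2.27. Small nucleolar RNA genes, which guide ribosomal RNA modification and were looked at after the values were seen, fell in 23 of 53 and rose in 2, with a median of -0.73.

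Most genes of nucleotide supply fell. In the purine and one-carbon list 21 of 25 fell and 1 rose, with a median of -1.43. Mthfd1, the cytosolic folate enzyme, went from 11.18, 11.58 and 10.95 to 8.43, 7.70 and 8.39 and fell by 3.06 (SE 0.31, adjusted p = 2.19e-05). Adsl and Atic of purine synthesis fell by 2.15 and 2.12, Cad, which starts pyrimidine synthesis, by 2.22, and Phgdh, which starts serine synthesis, by 1.47. The exception was Mthfd2, the mitochondrial folate enzyme, which rose by 1.06 (SE 0.17, adjusted p = 0.000623).

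Most mitochondrial genes of the lists fell. Of 68 genes of the mitochondrial ribosome 56 fell and none rose (median -1.16), with Mrpl19 at -2.03 and Mrps27 at -1.90. The TCA cycle had 13 lower and 1 higher of 19 (median -1.23); the succinyl-CoA ligase subunits Suclg2 and Suclg1 fell by 1.78 and 1.67, and Pdha1 of pyruvate dehydrogenase by 1.64. In oxidative phosphorylation 39 of 59 fell and 1 rose (median -0.62). That lower count was 21 without basophilic replicate 2, and 21 and 25 without proerythroblast replicates 1 and 2. Sdhd and Ndufb5, subunits of complexes II and I, fell by 1.59 and 1.56.

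In glycolysis several common enzymes fell, and the enzyme of the branch typical of red cells rose. Bpgm, which makes 2,3-bisphosphoglycerate, the ligand that loosens the hold of hemoglobin on oxygen, rose from 7.61 ± 0.19 (SD, n = 3) to 10.34 ± 0.33 (SD, n = 3), by 2.73 (SE 0.17, adjusted p = 1.23e-06), with no overlap. Tpi1, Pgk1, Ldha and Gapdh fell by 2.18, 1.98, 1.67 and 1.11. Pklr, the pyruvate kinase of mature red cells, read 10.01, 10.42 and 9.70 and then 8.58, 7.55 and 8.33 and fell by 1.89 (SE 0.33, adjusted p = 0.000952). The list held 10 lower and 5 higher (2 without basophilic replicate 2, and 2 and 2 without proerythroblast replicates 1 and 2) of 22 (median -0.38). In the pentose phosphate and NADPH list 5 of 10 fell and 1 rose (median -0.5); Nadk, the NAD kinase, fell by 1.52 and Pgd by 1.09. Cholesterol synthesis had 8 lower (5 without basophilic replicate 2 and 5 without proerythroblast replicate 2) and 0 higher of 20 (median -0.49), led by Scap, the escort of the sterol sensor, at -1.28.

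**Figure D3:**
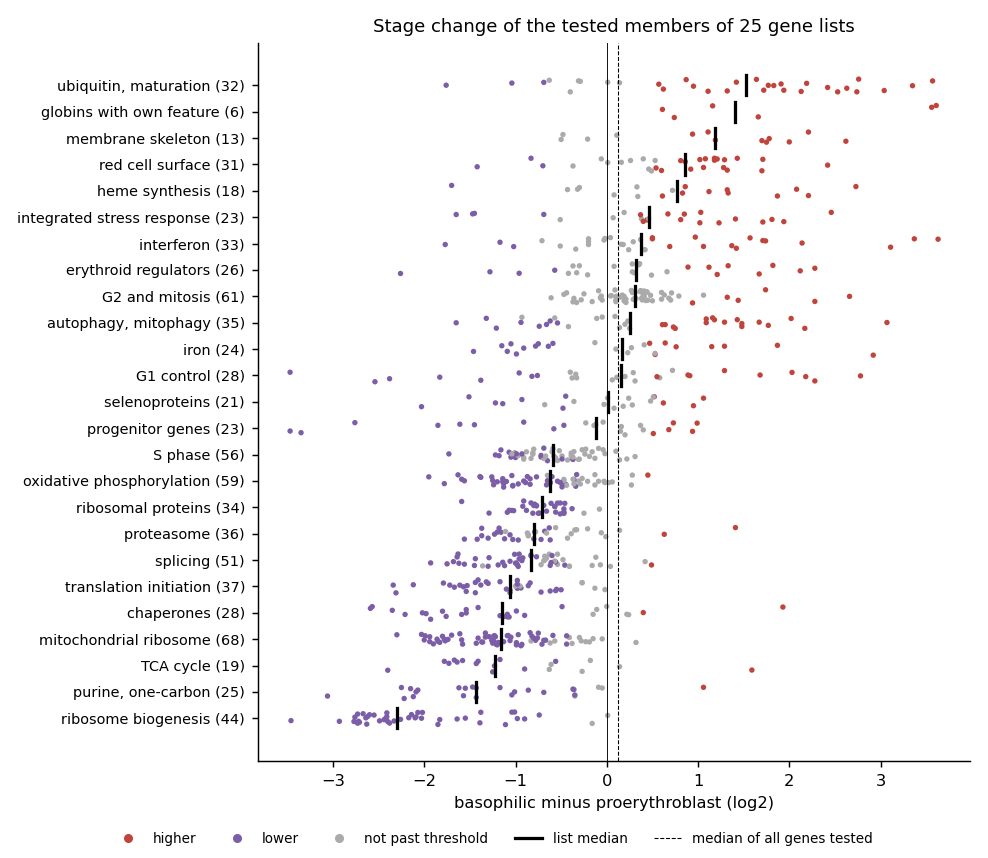
Log2 change from proerythroblast to basophilic erythroblast of each tested member of 25 gene lists (number tested in brackets), coloured by call, with the list median as a black bar and the median of all genes tested as a dashed line. Ribosome biogenesis (median -2.3) lies farthest to the left, and ubiquitin genes of maturation (median 1.53) farthest to the right.

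The highest median of the lists described here was that of ubiquitin enzymes tied to red cell maturation. Of 32 genes 23 rose and 3 fell (7 without deficient basophilic replicate 2), 19 rose by at least 1.5-fold, and the median was 1.53. Ube2o, the enzyme that clears ribosomes and other proteins from reticulocytes, went from 8.01, 8.40 and 8.53 to 11.45, 12.30 and 11.89. It rose by 3.57 (SE 0.27, adjusted p = 3.01e-06), or 11.8-fold, with no overlap. Ube2h, a ubiquitin-conjugating enzyme of late erythroblasts, went from 7.85, 8.12 and 8.38 to 11.13, 11.82 and 11.46 and rose by 3.35 (SE 0.24, adjusted p = 2.24e-06). Trim58, the ligase that breaks down dynein before enucleation, read 8.22, 8.23 and 7.98 and then 10.94, 10.29 and 11.08 and rose by 2.63 (SE 0.22, adjusted p = 5.74e-06). Marchf2 and Marchf3, membrane-bound ligases, rose by 2.42 and 2.13, Ranbp10 by 2.19 and the deubiquitinase gene Usp32 by 1.91. Klhdc3, an adaptor of a ligase, fell by 1.76. Among genes of the proteasome itself 19 of 36 genes fell (10 without basophilic replicate 2) and 2 rose (median -0.8). Psmb3 and Psmb10 fell by 1.56 and 1.37, and the activator gene Psme3 rose by 1.41. Psmg1, a chaperone that assembles the proteasome core, was among the largest falls: 9.99, 10.13 and 9.97 went to 6.98, 6.73 and 7.25, by 3.04 (SE 0.25, adjusted p = 5.58e-06).

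Autophagy genes rose in 17 and fell in 8 of 35 (median 0.25). Bnip3l (Nix), the receptor that marks mitochondria for removal in red cells, went from 8.76, 8.75 and 8.82 to 10.72, 10.97 and 10.71 and rose by 2.02 (SE 0.14, adjusted p = 1.68e-06). Atg4a, a protease that primes Atg8 proteins, rose by 3.07 (SE 0.28, adjusted p = 9.58e-06), and the Atg8 family genes Gabarapl2 and Map1lc3b by 2.17 and 1.48. Ulk1, the kinase that starts autophagy, rose by 1.77. Atg5 and Atg3 of the conjugation step fell by 1.65 and 1.32. Lysosome genes were lower in 9 and higher in 2 of 21 (median -0.63). Atp6v1h, a subunit of the proton pump, fell by 1.81, and Ctsb (cathepsin B) rose by 1.32.

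Genes of enucleation and actin had 6 higher and 7 lower (3 without basophilic replicate 2) of 31 (median -0.27). Xpo7, the exportin that removes histones from the condensing nucleus, went from 8.69, 9.70 and 9.59 to 11.89, 11.85 and 12.16 and rose by 2.64 (SE 0.24, adjusted p = 9.89e-06). Proerythroblast replicate 1 was its lowest array, and the stages did not overlap. Tent5c, an RNA polyadenylating enzyme, rose by 2.00 and the formin gene Diaph3 by 1.16. Capzb, an actin capping subunit, fell by 1.38 and Arpc2, of the branching complex, by 1.39. Vim (vimentin), the filament lost during erythroid maturation, had 7.07, 7.08 and 8.51 in proerythroblasts and 7.33, 7.05 and 7.18 in basophilic erythroblasts. Proerythroblast replicate 3 was higher than the other arrays, and the change of -0.37 did not pass (adjusted p = 0.346).

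Chaperones fell in 21 and rose in 2 of 28 (median -1.15). The mitochondrial chaperones Hspa9 and Hspd1 fell by 2.59 and 2.57, Hsph1 by 2.35 and Cct3, of the ring that folds actin and tubulin, by 2.02. Dnajb2, a co-chaperone, rose by 1.93 (SE 0.12, adjusted p = 1.21e-06). The unfolded protein list had 11 lower and 1 higher of 25 (median -0.55), with the disulfide isomerase genes P4hb and Pdia6 at -1.59 and -1.44.

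Genes of the integrated stress response, in which phosphorylation of eIF2 slows translation, rose in 14 and fell in 4 of 23 (median 0.46). Eif2ak1 (HRI), the kinase that senses heme in erythroid cells, went from 10.14, 10.15 and 9.88 to 11.90, 11.70 and 11.99 and rose by 1.81 (SE 0.13, adjusted p = 2.71e-06). Ppp1r15a (GADD34), which returns eIF2 to its active form, rose by 2.46 (SE 0.16, adjusted p = 1.23e-06), and Ddit3 (CHOP), a factor downstream, by 1.41. Asns (0.38) did not pass in the main fit. It passed without deficient basophilic replicate 2 (adjusted p = 0.0365) and in a fit of the adequate arrays alone (adjusted p = 0.0258). With both replicate 2 basophilic arrays left out it passed too (0.46, adjusted p = 0.0226). Aldh18a1 of proline synthesis fell by 1.65.

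Selenoproteins, the enzymes that depend on the nutrient held adequate here, did not move together. Of 21 tested, 4 rose (2 without basophilic replicate 2 or proerythroblast replicate 2, and 7 without deficient basophilic replicate 2) and 7 fell, and the median of 0.01 turned to -0.2 with centring. Gpx1, the abundant glutathione peroxidase of red cells, read 12.97, 12.81 and 12.79 and then 13.25, 13.52 and 13.36. All its basophilic arrays lay above, and it rose by 0.52 (SE 0.16, adjusted p = 0.022), a call lost with median centring (0.31, adjusted p = 0.12). Without basophilic replicate 2 or 3, or proerythroblast replicate 2 or 3, it was lost too (adjusted p 0.0503 to 0.0817). Gpx4, which reduces lipid peroxides, had 8.36, 8.23 and 8.22 and then 8.56, 7.96 and 8.53 and did not pass (0.08, adjusted p = 0.697). Selenow went from 9.65, 9.62 and 9.48 to 8.81, 8.55 and 8.60 and fell by 0.93 (SE 0.16, adjusted p = 0.000774). Selenos, which helps to clear misfolded proteins from the endoplasmic reticulum, fell by 2.03 (SE 0.29, adjusted p = 0.000218), Selenoi by 1.51 and Selenoh, a nucleolar selenoprotein, by 1.14. Txnrd2, the mitochondrial thioredoxin reductase, rose by 1.06 and Selenok by 0.95. The machinery that inserts selenocysteine fell in 5 of 10 and rose in 0 (median -0.71): Eefsec, its elongation factor, fell by 1.30, Pstk, the kinase of its tRNA, by 1.23 and Sephs2, itself a selenoprotein that makes the selenium donor, by 1.22.

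Selenium-free antioxidants included a strong rise. Cat (catalase) went from 10.03, 10.35 and 10.26 to 12.22, 12.88 and 12.56 and rose by 2.34 (SE 0.21, adjusted p = 9.15e-06), 5.06-fold. Prdx2, the main peroxiredoxin of red cells, read 11.53, 11.51 and 11.34 and then 12.27, 12.24 and 12.30 and rose by 0.81 (SE 0.11, adjusted p = 0.000218). Slc7a11, the cystine carrier, rose by 1.02, and the glutathione transferases Gsta4 and Gsto1 fell by 1.25 and 1.15. The list gave 6 higher and 5 lower of 25, shares near those of all genes. The lower count ran from 3 to 8, changing by more than 1.5 times on leaving out 6 of the 12 arrays. The list's median of 0.01 turned to -0.2 with centring. Targets of p53 rose in 6, a share near that of all genes, and fell in 2 of 21 (median 0.35). Btg2, an inhibitor of division, rose by 1.68 and Ccng1 fell by 1.59. In the cell death list 7 fell and 5 rose (3 without basophilic replicate 2, and 3 without proerythroblast replicate 2) of 29. The killers Bid and Bak1 fell by 1.34 and 1.00, and Bbc3 (PUMA) rose by 0.75. The cell death median of -0.08 turned to 0.09 under quantile normalization.

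A set of interferon-stimulated genes rose steeply. Isg15, a ubiquitin-like antiviral protein, went from 5.45, 6.01 and 5.76 to 9.35, 9.64 and 9.13, a rise of 3.63 (SE 0.47, adjusted p = 0.000123) or 12.4-fold. Rsad2 (viperin), an antiviral enzyme, read 8.45, 9.20 and 9.12 and then 12.14, 12.54 and 12.19 and rose by 3.37 (SE 0.24, adjusted p = 2.11e-06). Oas3, a sensor of double-stranded RNA, rose by 3.11 (SE 0.38, adjusted p = 7.63e-05), Ifit1 by 2.14 and Isg20 by 1.57. Other genes of the same response fell. Ifitm2, which blocks viral entry, went from 9.69, 9.56 and 9.63 to 8.31, 7.30 and 7.97, by 1.77 (SE 0.24, adjusted p = 0.000155), and Ifit2 and Bst2 fell by 1.17 and 1.02. Of 33 genes tested 14 rose and 3 fell (5 without basophilic replicate 1 and 5 without deficient basophilic replicate 2), 8 rose by at least 1.5-fold, and the median was 0.37. A further 5 were below the filter. The changes of the nucleic acid sensor gene Ifi204 (-0.20) and of Irf1 (0.16) did not pass.

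Promoters of Isg15 and Rsad2, which rose, and of Ifitm2, which fell, are shown as windows that match the site pattern of interferon-activated factors. They are the same RefSeq windows, at chr4:156200769-156201068, chr12:26456403-26456702 and chr7:140955912-140956211, all on the minus strand. Capitals mark GAAA followed, after any 2 bases, by GAAA, or the same on the other strand, where TTTC is followed after 2 bases by TTTC.
Isg15: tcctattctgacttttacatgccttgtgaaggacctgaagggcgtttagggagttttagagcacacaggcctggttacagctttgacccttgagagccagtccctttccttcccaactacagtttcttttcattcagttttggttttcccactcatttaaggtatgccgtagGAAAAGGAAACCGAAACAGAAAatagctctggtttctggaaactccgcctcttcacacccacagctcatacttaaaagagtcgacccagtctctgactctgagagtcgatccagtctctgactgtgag
Rsad2: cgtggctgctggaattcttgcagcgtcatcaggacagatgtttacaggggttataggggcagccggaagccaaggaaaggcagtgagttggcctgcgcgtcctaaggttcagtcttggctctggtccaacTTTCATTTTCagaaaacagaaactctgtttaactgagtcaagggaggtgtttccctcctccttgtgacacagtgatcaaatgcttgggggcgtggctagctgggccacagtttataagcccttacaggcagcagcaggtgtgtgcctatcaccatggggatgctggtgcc
Ifitm2: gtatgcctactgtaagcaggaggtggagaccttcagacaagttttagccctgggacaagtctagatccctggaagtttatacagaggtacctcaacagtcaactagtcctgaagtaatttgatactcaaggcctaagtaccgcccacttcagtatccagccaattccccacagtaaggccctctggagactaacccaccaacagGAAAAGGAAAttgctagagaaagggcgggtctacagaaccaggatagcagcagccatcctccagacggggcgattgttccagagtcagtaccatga
Isg15 held 3 overlapping matches, beginning 78, 72 and 66 bases before the start, Rsad2 held 1 that begins 120 bases before it and Ifitm2 1 that begins 46 bases before it. Of the 25 listed genes with a window 14 held a match (56%), against 3.57% of all genes tested with a window and 3.44% of all windows. For genes at least 1.5-fold higher and lower the shares were 6.91% and 2.55%. Only windows with a match are shown, and a match is not evidence of binding.

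**Figure D4:**
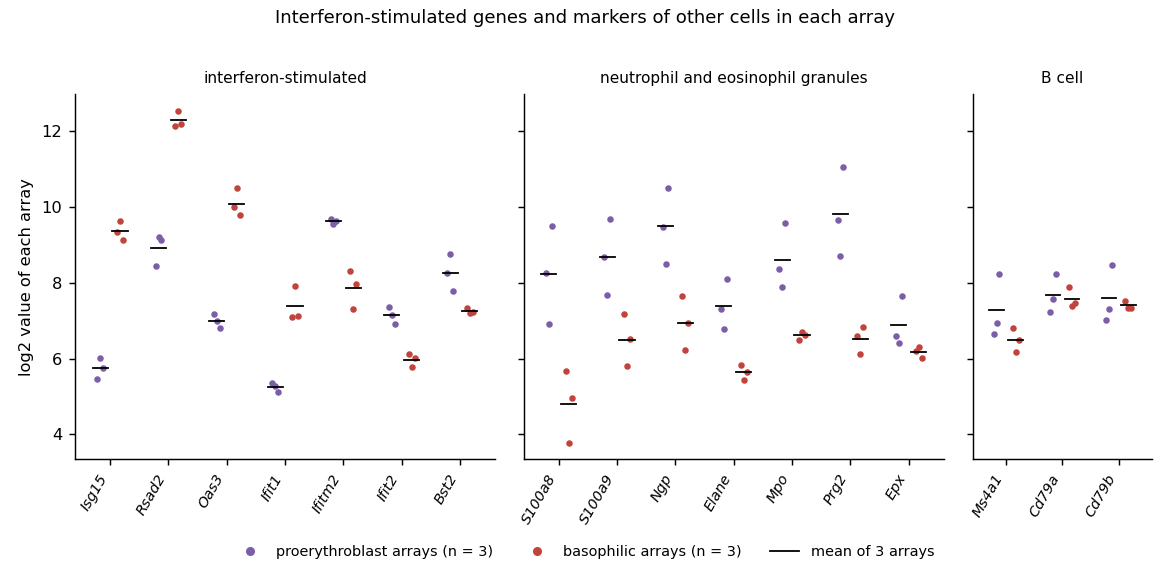
Log2 value of each array for interferon-stimulated genes, for granule genes of neutrophils and eosinophils, and for B cell markers, in proerythroblasts (purple) and basophilic erythroblasts (red) on the adequate diet, with the mean of the 3 arrays as a bar. Isg15 and Rsad2 rise without overlap and Ifitm2 falls, and the proerythroblast values of S100a8 (8.27, 6.92 and 9.50) and Prg2 (9.65, 8.71 and 11.07) lie widely apart.

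Most genes of RNA handling fell. Splicing genes were lower in 32 and higher in 1 of 51 (median -0.83). The lower count was 18 without basophilic replicate 2, and 19 and 18 without proerythroblast replicates 1 and 2. Snrpb2, of the U2 particle, fell by 1.93 and Prpf19, a ubiquitin ligase of the spliceosome, by 1.63. Mbnl1, which controls alternative splicing in late erythroblasts, fell by 0.77. Nuclear transport was lower in 23 and higher in 2 of 41 (median -0.96): Ipo8, an import receptor, fell by 1.53, against the rise of Xpo7 given above. Antigen presentation genes fell in 3 (1 without basophilic replicate 2 or 3, proerythroblast replicate 3 or deficient proerythroblast replicate 3) of 15 and none rose (median -0.4), with H2-K1 at -0.68, and no MHC call held under both scalings. Glucocorticoid response genes, which mark the hormone that holds stress progenitors in division, had 2 higher and 4 lower of 11 (median -0.08). The lower count was 0 without basophilic replicate 2 or proerythroblast replicate 1, 1 without basophilic replicate 3 or proerythroblast replicate 2 or 3, and 2 without basophilic replicate 1. The higher count was 0 without proerythroblast replicate 1 or 2, and both scalings kept 0 higher and 1 lower. Zfp36l1, an RNA-decay factor, fell by 1.04, a call lost without basophilic replicate 2 or 3 or any proerythroblast array (adjusted p 0.0582 to 0.102). Eicosanoid genes had 4 higher and 6 lower of 18, shares near those of all genes (median -0.02). The higher count was 1 without basophilic replicate 2 or 3 or proerythroblast replicate 1 or 2, 2 without proerythroblast replicate 3 or any deficient proerythroblast array, and 1 under both scalings. Tbxas1, thromboxane synthase, rose by 2.43 (SE 0.43, adjusted p = 0.00114), Pla2g4a, the phospholipase that frees arachidonate, fell by 1.74 (SE 0.16, adjusted p = 1.18e-05), and Lta4h, which makes leukotriene B4, by 1.67.

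The largest changes named by rule held further genes outside these lists. Predicted genes, pseudogenes, microRNA and small nucleolar RNA genes were left out of that rule, and some of them changed as much. Tcp11l2 and Isg15 had the largest rises of the genes named. Tcp11l2 went from 6.69, 7.41 and 7.32 to 10.24, 11.14 and 10.92 and rose by 3.63 (SE 0.31, adjusted p = 6.78e-06). Gch1, the first enzyme of tetrahydrobiopterin synthesis, went from 7.34, 7.08 and 7.19 to 10.81, 10.56 and 10.75 and rose by 3.50 (SE 0.21, adjusted p = 8.62e-07). The apolipoprotein L genes Apol11a and Apol11b rose by 3.46 and 3.35 and the guanine deaminase gene Gda by 3.33. Among the falls were Prelid2, a PRELI-domain gene, from 9.35, 9.37 and 9.34 to 5.74, 6.34 and 5.94, by 3.35 (SE 0.16, adjusted p = 4.96e-07), and Trgc3, a constant segment of the T cell receptor gamma locus, by 3.35 (SE 0.61, adjusted p = 0.00133). The mitochondrial lysine tRNA gene mt-Tk fell by 3.06 (SE 0.46, adjusted p = 0.000368). All 24 genes named by this rule kept their call under both scalings and with each array left out. The rule chose them for large changes in these same arrays, so this is not independent support.

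Markers of other cells were followed over whole lists. Neutrophil genes fell in 9 and rose in 2 of 20 (median -0.53), and the list's mean level was 6.28 to 7.35 in the proerythroblast arrays and 5.89 to 6.18 in the basophilic arrays. S100a8, a neutrophil cytosolic protein, read 8.27, 6.92 and 9.50 and then 5.68, 3.78 and 4.97 and fell by 3.42 (SE 0.79, adjusted p = 0.00551). Prg2, the major basic protein of eosinophils, read 9.65, 8.71 and 11.07 and then 6.59, 6.13 and 6.84 and fell by 3.29 (SE 0.60, adjusted p = 0.00124). In both genes proerythroblast replicate 3 was the highest and replicate 2 the lowest of its group, 2.58 and 2.36 units apart. Ngp, Mpo and Elane fell by 2.54, 2.00 and 1.76, and S100a9 by 2.18. Eosinophil genes fell in 2 of 4. Epx, eosinophil peroxidase, changed by -0.71 (adjusted p = 0.0482) and by -0.33 without proerythroblast replicate 3 (adjusted p = 0.176), and 9 of the other 11 arrays left out also ended the call. Kit and Cdk6 ranged over 0.37 and 0.05 units among the proerythroblast arrays, and the values of Myb are given above. These ranges do not measure the part of neutrophils and eosinophils in the fall of Myb, Kit or Cdk6, which was not tested.

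B cell genes fell in 1 of 14 (median -0.45), and their mean level was 7.24 to 8.56 in proerythroblasts and 7.13 to 7.47 in basophilic erythroblasts. Of these the B cell receptor subunit gene Cd79b changed by -0.20 and the surface antigen gene Ms4a1 by -0.79, and neither passed. Ms4a1 did pass without proerythroblast replicate 1 (-1.10, adjusted p = 0.0455) and with a replicate block (adjusted p = 0.0462). Macrophage genes rose in 3 of 21 (0 without proerythroblast replicate 2, 1 without basophilic replicate 2 or proerythroblast replicate 1, and 6 without deficient basophilic replicate 2), with mean levels of 5.71 to 6.86 and then 6.18 to 6.66. Stroma and endothelium genes rose in 8 of 11, at levels of 5.56 to 6.21 in all arrays. None of these rises held under both scalings, and without basophilic replicate 2, 3 or proerythroblast replicate 1, 2 or 3 the count was 0, 5, 1, 1 and 2. Megakaryocyte genes rose in 5 (3 without basophilic replicate 3 or any one proerythroblast array of either diet) and fell in 1 of 11, T and NK cell genes rose in 2 of 13 (6 without proerythroblast replicate 3), dendritic cell genes rose in 1 and fell in 2 of 9, and mast cell genes rose in 1 of 5.

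The same step on the selenium-deficient diet, from 6 arrays that share none with the adequate diet, served as the comparison. Its basophilic replicate 2 had the highest background of all arrays (4.70) and the narrowest interquartile range (2.17). A free-text note on its basophilic replicate 3 names proerythroblasts, while the title, followed here, names basophilic cells; without it 36 genes differed by diet instead of 61. The step there gave 11270 calls (56%), and 8467 genes were called in the same direction on both diets, 77.6% of the adequate calls and 75.1% of the deficient calls, with 5 in opposite directions. Across genes, which are not independent replicates, the changes correlated at r = 0.872. The difference between the diets was tested as an interaction in limma, and these 61 genes passed (0.303%). Of these 51 changed in the same direction on both diets and by more on the adequate diet, 10 had changes of opposite sign and 0 changed in the same direction and by more on the deficient diet. The count was 282 without deficient basophilic replicate 2, of which 252 changed in the same direction and by more on the adequate diet and 2 by more on the deficient diet. Without any one of the other 11 arrays it was 12 to 36. The part of the background in this difference was not tested. Kept with each array left out in turn were 12 of the 25 such genes named here, and 17 were kept under quantile normalization. Tmod1 rose by 2.62 on the adequate diet and changed by 0.75 on the deficient diet, a difference of 1.88 (SE 0.16, adjusted p = 0.0022). Kit changed by -2.76 and -0.62, a difference of -2.13 (SE 0.23, adjusted p = 0.0051). Cdc25b changed by 2.66 and 0.54, with a difference of 2.11 (SE 0.22, adjusted p = 0.0051). The other genes with the smallest p were Hbq1a (difference 1.88), Hbq1b (2.03), the phosphatase gene Ptp4a3 (1.52), Gch1 (2.49) and the adaptor gene Sh2d4a (-2.41), which fell by 2.21 on the adequate diet and had 0.21 on the deficient diet.

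The list counts for the deficient diet stood beside those of the adequate diet as follows. In G2 and mitosis the median was -0.55 on the deficient diet against 0.31, and in S phase -1.15 with 47 genes lower against 16. No S phase gene passed the test of the difference, and 2 genes of the G2 and mitosis list did, Cdc25b and Fzr1 (1.09, adjusted p = 0.0363). Heme synthesis rose in 5 genes against 10, and 3 differed by diet: Alas2 (1.67, adjusted p = 0.0363), Slc25a37 (1.39, adjusted p = 0.0074) and Fech (1.18, adjusted p = 0.046). Ribosome biogenesis fell in 42 against 42 with medians of -1.7 and -2.3, and 1 gene differed, Utp15 (-1.12, adjusted p = 0.0447). Of these Alas2, Fech, Fzr1 and Utp15 lost the call when single arrays were left out (adjusted p up to 0.143, 0.166, 0.143 and 0.154) and under quantile normalization (0.0589, 0.0664, 0.121 and 0.0802). No selenoprotein gene passed the test of the difference; Selenow fell by 0.93 on the adequate diet and changed by 0.06 on the deficient diet (difference -0.99, adjusted p = 0.0968).

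**Figure D5:**
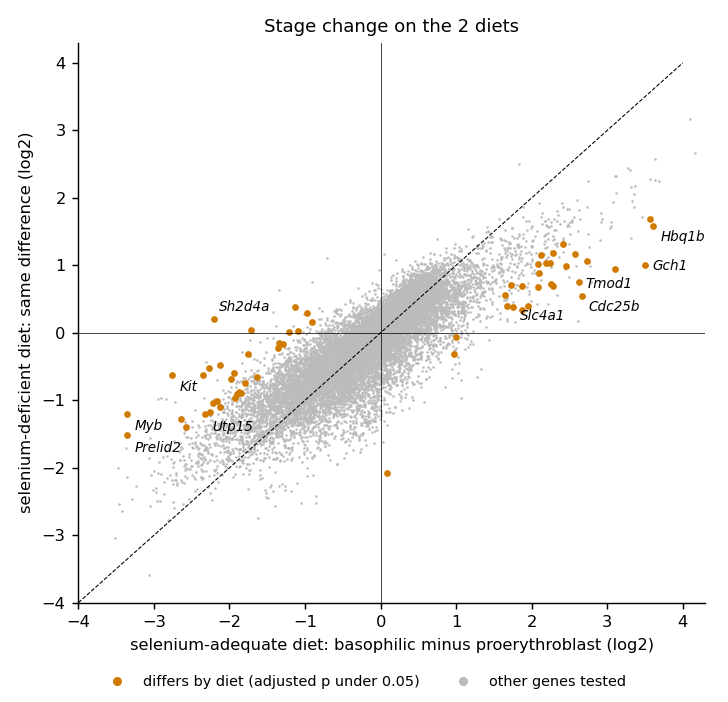
Each point is a gene tested, placed by its log2 change from proerythroblast to basophilic erythroblast on the selenium-adequate diet (horizontal) and on the selenium-deficient diet (vertical), with equal changes on the dashed line. The 61 genes whose change differed by diet (orange) include Kit, Myb, Tmod1 and Slc4a1, which lie nearer to 0 on the vertical axis than on the horizontal one.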

How the data were processed

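Expression was measured on 12 Affymetrix whole-transcript arrays, 3 per combination of stage and diet. The deposited values are log2 signals per feature, made with Affymetrix Expression Console per the submitters' processing notes; background correction and normalization are not given in the sources used here, and the values were used unchanged. Of 72688 features 6732 were controls, 31258 named 1 gene and 1492 several; 33206 named none. Features with 1 gene gave 30702 genes (441 with several features, the brightest of which was kept), and 20128 were tested, those that exceeded the overall median of 5.3 on 3 or more arrays.

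Group means were fitted to all 12 arrays with limma 3.58.1 in R 4.3.3 (eBayes, Benjamini-Hochberg, threshold 0.05), so the arrays share 1 estimate of the spread; tables were made with Python 3.11.15. The test was checked on simulated data. Alternatives were no filter, a stricter filter (above 6.14, the 67th percentile), quantile normalization, median centring, trended variance, array weights, a replicate block, features averaged per gene, a fit of the adequate arrays alone, a 1.5-fold test (treat) and each array left out. Genes were named by rule: the 12 highest and 12 lowest changes without overlap (predicted, pseudogene, microRNA and small nucleolar RNA symbols left out), core genes, members of 56 gene lists with the smallest p or highest level, and the 8 smallest p for diet. Olfactory receptor genes, small nucleolar RNA genes and the printed promoters were chosen after values were seen. The comparison, members and lists were chosen with earlier results of these data known.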

Additional observations from a re-analysis of the deposited data

Results flagged for a closer look

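The step from proerythroblast to basophilic erythroblast differed between the adequate and the deficient diet, by limma's interaction test (Benjamini-Hochberg adjusted), in 25 of the genes named above. The values here are the log2 change on the adequate diet minus that on the deficient diet, with 3 arrays in each of the 4 groups. Positive differences, where the adequate change was the higher one, were 2.49 for Gch1, 2.11 for Cdc25b, 2.03 for Hbq1b, 1.88 for Hbq1a, 1.88 for Tmod1, 1.67 for Alas2, 1.58 for E2f2, 1.52 for Ptp4a3, 1.47 for Ppp1r15a, 1.39 for Slc25a37, 1.37 for Slc4a1, 1.18 for Fech, 1.16 for Ranbp10, 1.09 for Fzr1 and 0.97 for Marchf3. Negative differences were -2.41 for Sh2d4a, -2.15 for Myb, -2.13 for Kit, -1.83 for Prelid2, -1.76 for Itga5, -1.73 for Hsph1, -1.66 for Eng, -1.12 for Utp15, -1.11 for Pgd and -0.97 for Kat2a. Of these 25 genes 12 kept the call with each of the 12 arrays left out in turn, and 17 kept it under quantile normalization.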

How the results depend on the processing

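The count of genes that changed was 6549 under quantile normalization, 1870 at 1.5-fold and 5613 to 14336 with each array left out. The count higher was 3454 with the stricter filter, 2375 under quantile normalization, 2156 with median centring, 428 at 1.5-fold and 1972 to 8071 with each array left out. The count lower was 1442 at 1.5-fold and 3641 to 6265 with each array left out. The count that differed by diet was 38 with no filter, 23 under quantile normalization, 482 with array weights, 0 at 1.5-fold (1842 at an unadjusted limma p under 0.05 with no fold required), 12 to 282 with each array left out and 700 with both replicate 2 basophilic arrays left out. That last setting was chosen after seeing the data, and gave 663 genes at least 1.5-fold higher; each array left out gave 327 to 570 higher and 958 to 2179 lower by that measure. The cause was not tested. Deviations from the group means of same-numbered arrays of the stages, on the adequate diet, correlated at 0.207, -0.068 and -0.165. Differently numbered arrays gave -0.185 to 0.184. With 3 arrays a stage these values cannot decide whether the numbers pair samples, and the main fit took them as unpaired. The replicate block moved the calls to 6615 higher and 5682 lower. Of 220 named genes that passed, 212 kept their call and direction in every alternative run other than the 1.5-fold test, which kept 178, and 0 reversed. Many of these genes were named for large changes or small p in these same arrays, so they do not stand for all calls. Over all genes tested, 1644 of 5767 higher calls and 3416 of 5143 lower calls held with each array left out. The number of arrays, the higher background of the basophilic arrays and the brightest features limit what could be measured.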
